A study of Mus musculus with 12 samples.

Results

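The small noncoding RNA genes are the genes of the quantification whose symbols mark them as 7SL, 7SK, spliceosomal and U7 small nuclear (snRNA), small nucleolar (snoRNA), small Cajal body (scaRNA), RNase P, RNase MRP, telomerase or Y RNAs. They were chosen by symbol alone, and 147 of the 24480 genes in the table matched. All libraries came from E14Tg2a, an established line of mouse embryonic stem cells (ESCs), labelled pluripotent and transfected transiently with a lipid reagent. In the knockdown experiment the cells received scrambled siRNAs (CTR KD) or a mix of siRNAs directed at mouse Yap1 (YAP KD). In the overexpression experiment they received a plasmid that encodes GFP according to the labels and is called empty vector in the study's text (CTR OE), or pCAG-mYAP, which drives mouse YAP from the ubiquitous CAG promoter (YAP OE). Each group had 3 libraries of total RNA, which the labels describe as independent experiments. The transfection was transient and no sort is described, so a library holds all cells of a culture, and fewer expressing cells cannot be told apart from less RNA per cell.

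These RNAs work as the guides and scaffolds of ribonucleoprotein particles rather than as messages. 7SL is the core of the signal recognition particle, and 7SK holds the elongation factor P-TEFb inactive. The spliceosomal snRNAs build the spliceosome, box C/D and box H/ACA snoRNAs direct methylation and pseudouridylation or the cleavage of ribosomal RNA, and scaRNAs do the same for snRNAs. RNase P RNA trims transfer RNA precursors, RNase MRP RNA cuts the ribosomal RNA precursor, Terc is the template of telomerase, and Y RNAs bind the Ro protein. Most snoRNAs are cut out of the introns of other genes, whereas 7SL, 7SK, RNase P, RNase MRP and Y RNAs are made by RNA polymerase III from their own promoters.

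Sequences are shown for Rnu7, Rpph1 and Scarna13, members that RefSeq windows or a microRNA hairpin entry covered, on GRCm38.p6, the assembly behind mm10. Rnu7, the U7 snRNA of histone message processing, received no count in any library, and its 62 bases are given whole, with its Sm protein binding site in capitals. For Rpph1, the RNase P RNA and one of the most counted members, the first 106 of 325 bases are given, as far as the RefSeq windows reach. Upstream of Rpph1, an octamer ATGCAAAT, an element of many RNA polymerase III promoters of this type, is in capitals and lies between bases -96 and -89 from the RNA start. The octamer was searched on both strands and occurred in 1.6% of 32851 RefSeq windows of 250 bases upstream of a gene start. For Scarna13, the most counted scaRNA, the last part is given as it stands in the microRNA hairpin entry that covers it (bases 209 to 273 of the RNA).
Rnu7, minus strand of chr6:124741225-124741286: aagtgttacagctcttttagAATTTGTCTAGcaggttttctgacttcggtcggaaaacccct
Rpph1, first part, minus strand of chr14:50807666-50807771: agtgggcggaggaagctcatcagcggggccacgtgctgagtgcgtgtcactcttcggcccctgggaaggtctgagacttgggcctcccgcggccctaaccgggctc
Rpph1, upstream, minus strand of chr14:50807772-50807915: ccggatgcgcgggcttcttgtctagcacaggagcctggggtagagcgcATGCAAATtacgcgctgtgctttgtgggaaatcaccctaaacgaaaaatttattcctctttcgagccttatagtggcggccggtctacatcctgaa
Scarna13, last part, minus strand of chr12:105031077-105031141: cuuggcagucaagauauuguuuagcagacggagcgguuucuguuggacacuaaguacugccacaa

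The libraries held between 42926260 and 57240700 expected counts. Yap1, the targeted gene, fell in YAP KD (log2 fold change -1.14, SE 0.0568, adjusted p = 4.36e-05) and rose in YAP OE (0.97, SE 0.0470, adjusted p = 3.47e-08, edgeR quasi-likelihood test with Benjamini-Hochberg adjustment, as for every adjusted p of a gene here). All 8 pluripotency markers had a mean above 10 CPM, the count of a gene relative to its library total after TMM scaling within each experiment. Markers of trophoblast, primitive endoderm and mesoderm summed to at most 4.79 CPM in any library, those of neuroectoderm to 17.4 to 21.0 CPM and those of fibroblasts to 51.5 to 80.3 CPM. Of the 3 neuroectoderm and 4 fibroblast markers, only 1 in each list had a mean above 10 CPM, with a highest value of 17.7 and 77.6 CPM. One library stood apart for the small RNAs. In YAP OE replicate 1 the median member lay 0.79 below its control mean on the log2 scale, against a range of -0.28 to 0.10 in the other 11 libraries. Some overexpression values are also given without this library. Values given once include it, and some of these moved as well on leaving it out.

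Counts of these RNAs increased with their length. Libraries had mean fragment lengths of 169 to 185 bases, estimated from the difference between annotated and effective length of genes longer than 1000 bases. Of the 7 members of 250 bases or more, all had counts in every library, and they held 85.1% of all counts assigned to the 147 genes. The 81 members shorter than 100 bases held 0.0108%. Among those 81, 15 had no count in any library and 23 had a count in each of the 12 libraries. A count of 0 allowed up to 3 counts, or 0.0524 to 0.0699 CPM per library, and covers counting error only. Rnu7 had no count, and Rnu6, the U6 snRNA of the spliceosome's active site (107 bases), had a count in 2 libraries only. Both are shorter than the mean fragment, and their values are limits of detection and not levels.

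**Figure D1:**
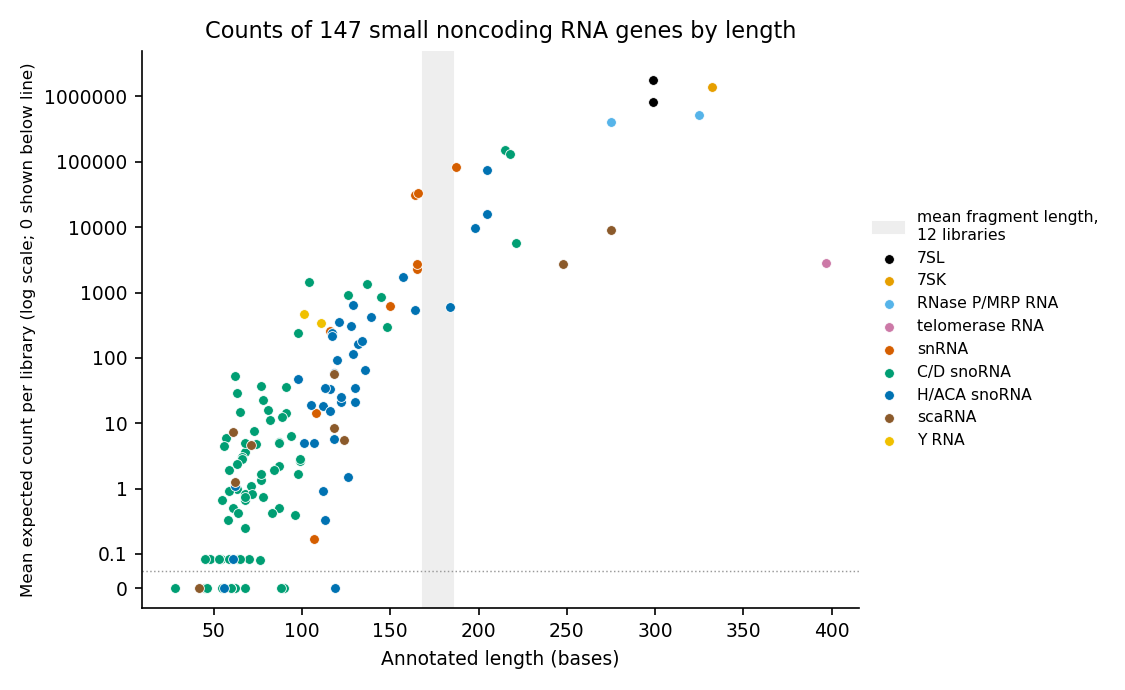
Mean expected count per library (log scale, 12 libraries) of each of the 147 small noncoding RNA genes against its annotated length in bases, coloured by class, with genes at 0 drawn below the dotted line and the range of mean fragment lengths (169 to 185 bases) shaded. The 7 genes of 250 bases or more carry 85.1% of the counts, and the 16 genes with no count lie, with 1 exception, below 100 bases.

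Few genes carried the class totals. The pair of 7SL genes, Rn7s1 and Rn7s2, took 45.0% of the counts of the 147 genes, Rn7sk took 24.0%, and Rpph1 and Rmrp together took 15.9%. The 82 C/D snoRNA genes took 10.3%, almost all of it in copies of U3, the snoRNA of early ribosomal RNA cleavage. Rnu3b1, Rnu3b2 and Rnu3b3, of 215 bases each, were given identical counts in all 12 libraries, so none of these copies is a measurement of its own. Rn7s1 received between 27.9% and 35.7% of the 7SL counts, and this division is likewise an estimate of the quantification. Per kilobase of annotated length, Rn7s2 was highest (mean 122751 CPM per kb over 12 libraries), followed by Rn7sk (86112) and Rn7s1 (56539). Rpph1 (32876) and Rmrp (30034) came next, and their ranges over libraries, 24754 to 37625 and 23742 to 35449, overlapped. Terc, the longest member at 397 bases, had only 144 CPM per kb.

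On the TPM scale the same genes filled most of each library. Small RNAs took between 63.9% (YAP KD replicate 3) and 71.4% (YAP KD replicate 1) of TPM, where TPM divides counts by an effective length that shrinks towards 0 in short transcripts. All other genes shared what remained, 28.6% to 36.1%, a ratio of 1.26 between the highest and the lowest library that enters the TPM of every other gene. Effective lengths under 1 base were set to 0 in the files, together with TPM. The longest gene so treated had 108 to 116 bases, depending on the library, and 81 members had counts but a TPM of 0 in at least 1 library. Rny1, a Y RNA of 111 bases, sat on that edge. Its TPM was 3518, 0 and 4031 in CTR KD replicates 1, 2 and 3, although its expected counts there were 321, 379 and 410. In YAP KD, counts of 279, 273 and 352 became a TPM of 0, 0 and 3199. Differences of these genes were tested on counts.

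The share of counts in the small RNA genes did not separate the groups. In the knockdown experiment it was 11.8%, 12.7% and 12.1% in CTR KD replicates 1, 2 and 3, and 12.9%, 11.7% and 11.0% in YAP KD. The YAP KD libraries spanned a wider range than the controls, above and below them (12.2% ± 0.491 in CTR KD and 11.8% ± 0.944 in YAP KD, SD, n = 3, exact two-sided permutation p = 0.6). In the overexpression experiment the share was 11.8%, 12.1% and 11.8% in CTR OE and 10.3%, 11.5% and 13.2% in YAP OE. Here too the YAP libraries lay on both sides of the controls (11.9% ± 0.169 against 11.7% ± 1.44, SD, n = 3, exact permutation p = 0.7). With 3 libraries a group the smallest p this test allows is 0.1. The share of TPM gave an exact p of 1 in both experiments.

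Summed over each class, neither experiment changed any of the 9 classes past the threshold (adjusted p under 0.05), on a background of 5.49% of 14606 genes called in the knockdown and 2.13% of 14804 in the overexpression. 7SL stood at 50632, 56317 and 54868 CPM in the CTR KD libraries and at 56772, 50848 and 49146 CPM in YAP KD. Its log2 fold change was -0.05 (95% interval -0.18 to 0.09, adjusted p = 0.75), and that of 7SK was -0.04 (-0.16 to 0.08, adjusted p = 0.76). For RNase P and MRP RNA the interval was -0.26 to 0.18. For each of these large RNA polymerase III products the YAP KD libraries overlapped the controls. In YAP OE the intervals of 7SL (-0.19 to 0.16), 7SK (-0.21 to 0.11) and RNase P and MRP RNA (-0.23 to 0.09) likewise held 0.

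The spliceosomal snRNAs and the Y RNAs came nearest to the threshold in the knockdown. Summed snRNAs were 3357, 3594 and 3628 CPM in the CTR KD libraries and 3179, 2845 and 3186 CPM in YAP KD. Every YAP KD library lay below every control (log2 fold change -0.20, SE 0.0535, adjusted p = 0.0618), but with the effective lengths of each library as an offset the value was -0.05 (adjusted p = 0.86). The 2 Y RNAs together were 17.6, 18.9 and 19.1 CPM in the CTR KD libraries and 14.1, 13.8 and 16.9 CPM in YAP KD, again without overlap (-0.31, SE 0.0793, adjusted p = 0.0558). In YAP OE the snRNAs did not separate (2673, 3258 and 3116 CPM against 2016, 3614 and 3323 CPM, log2 fold change -0.01, adjusted p = 0.98). The Y RNAs were 15.8, 18.1 and 20.5 CPM in the CTR OE libraries and 9.57, 16.8 and 16.9 CPM in YAP OE, and these groups overlapped (-0.34, SE 0.145, adjusted p = 0.31). Without YAP OE replicate 1 the log2 fold change was 0.20 for the snRNAs (adjusted p = 0.19) and -0.11 for the Y RNAs (adjusted p = 0.63). C/D snoRNAs, H/ACA snoRNAs and scaRNAs had log2 fold changes between -0.03 and -0.02 in the knockdown and between -0.11 and -0.02 in the overexpression, none past the threshold.

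**Figure D2:**
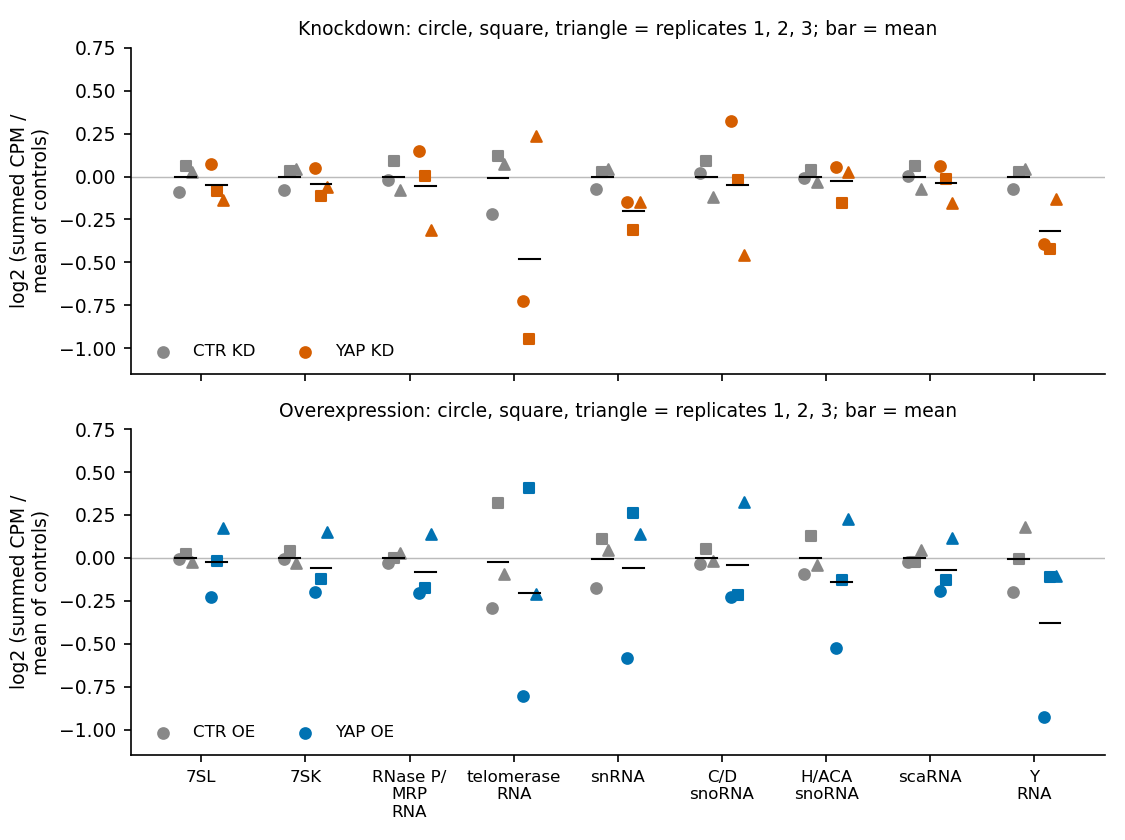
Summed CPM of each class in each library as the log2 ratio to the mean of the controls, for the knockdown (top) and overexpression (bottom) experiments, with replicates 1, 2 and 3 as circles, squares and triangles and bars at the mean of 3 libraries. snRNA and Y RNA lie below all controls in YAP KD, and YAP OE replicate 1 (circle) is the lowest overexpression library in all 9 classes.

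Of the 147 genes, 69 passed the filter on low counts in the knockdown and 67 in the overexpression. In YAP KD, 2 of 69 were called lower and 0 higher, where 2.78% of all genes were called lower and 2.71% higher, so the count was near the background. The direction was less even. Of the 69, 57 had a log2 fold change below 0 (82.6%, against 48.2% of all genes), the median was -0.12 against 0.01 for all genes, and 15 had an unadjusted p under 0.05, all of them lower (9.82% of all genes in each direction). Without YAP KD replicate 3 the median was -0.22 and 6 of 69 were called, where 2.51% of all genes were. In 12 of 69 all 3 YAP KD libraries lay below all 3 controls (12.7% of all genes), and in none did they lie above (13.2% of all genes). Medians varied with annotated length, from -0.22 in the 31 tested members of 100 to under 150 bases to 0.00 in the 8 of 200 to under 250 bases.

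Snord118, the box C/D RNA U8, which is needed to process 28S and 5.8S ribosomal RNA, lies at chr11:69073426-69073562 (GRCm38.p6) and overlapped no other gene of that annotation. It was measured at 29.9, 32 and 32.9 CPM in the CTR KD libraries and at 26.4, 22.9 and 25.1 CPM in YAP KD. All YAP KD libraries were below all controls, and Snord118 fell by 0.35 on the log2 scale (SE 0.0616, adjusted p = 0.0115). The call was kept under 12 of 19 alternatives, with adjusted p between 3.55e-04 and 1, and with the effective length of each library as an offset the log2 fold change was -0.12 (adjusted p = 0.76). It was lost without CTR KD replicate 3 (adjusted p = 0.0647) or without YAP KD replicate 2 (adjusted p = 0.0540). In CTR OE Snord118 stood at 23.8, 27.0 and 28.3 CPM, and in YAP OE at 13.8, 36.5 and 28.5 CPM. The YAP OE libraries enclosed the controls (log2 fold change -0.01, SE 0.210, and 0.29 without YAP OE replicate 1, adjusted p = 0.12).

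Snora64, an H/ACA snoRNA within the ribosomal protein gene Rps2 (chr17:24720789-24720905, GRCm38.p6), was the other called member. It was 4.84, 5.24 and 5.47 CPM in the CTR KD libraries and 3.78, 4.22 and 2.89 CPM in YAP KD, again with no overlap, and fell by 0.53 (SE 0.130, adjusted p = 0.0485). This call was kept under 8 of 19 alternatives (adjusted p from 0.0183 to 1), and with the effective length offset the log2 fold change was -0.28 (adjusted p = 0.62). Of the 6 knockdown libraries only YAP KD replicate 2 could be left out with the call kept, and the adjusted p was between 0.0472 and 0.18 over those 6 fits. Its host Rps2 was at 3240 ± 131 CPM in the CTR KD libraries and 3134 ± 100 CPM in YAP KD (SD, n = 3, log2 fold change -0.05, adjusted p = 0.64). In the overexpression experiment Snora64 had 3.73, 4.68 and 4.74 CPM in the CTR OE libraries and 2.53, 5.83 and 5.01 CPM in YAP OE, where the groups overlapped (0.01, SE 0.204, and 0.30 without YAP OE replicate 1, adjusted p = 0.26).

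Several uncalled members shared the separation in YAP KD. Rnu2-10, the U2 snRNA that pairs with the intron branch site, had 1915, 2036 and 1900 CPM in the CTR KD libraries and 1852, 1647 and 1490 CPM in YAP KD (log2 fold change -0.23, SE 0.0715, adjusted p = 0.11, and -0.07 with the effective length offset). Rny3 had 10.6, 11.7 and 10.7 CPM in the CTR KD libraries and 7.56, 7.63 and 10.4 CPM in YAP KD (-0.36, SE 0.116, adjusted p = 0.11). For Rny3 the third YAP KD library was close to the controls. Rny1 had 7.03, 7.11 and 8.47 CPM against 6.59, 6.20 and 6.56 CPM (-0.22, SE 0.0878, adjusted p = 0.19). Snora81, an H/ACA snoRNA of the translation factor gene Eif4a2, had 12.6, 14.2 and 12.7 CPM against 11.5, 10.7 and 5.57 CPM (-0.52, SE 0.207, adjusted p = 0.19). Its fold change leaned on YAP KD replicate 3, the library in which Rny3 was closest to its controls. The remaining members whose groups did not overlap were Snora15, Snora21, Snora33, Snora52, Snord14e and Snord83b, named after their values were seen, with log2 fold changes from -0.59 (Snora15) to -0.29 (Snora21).

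**Figure D3:**
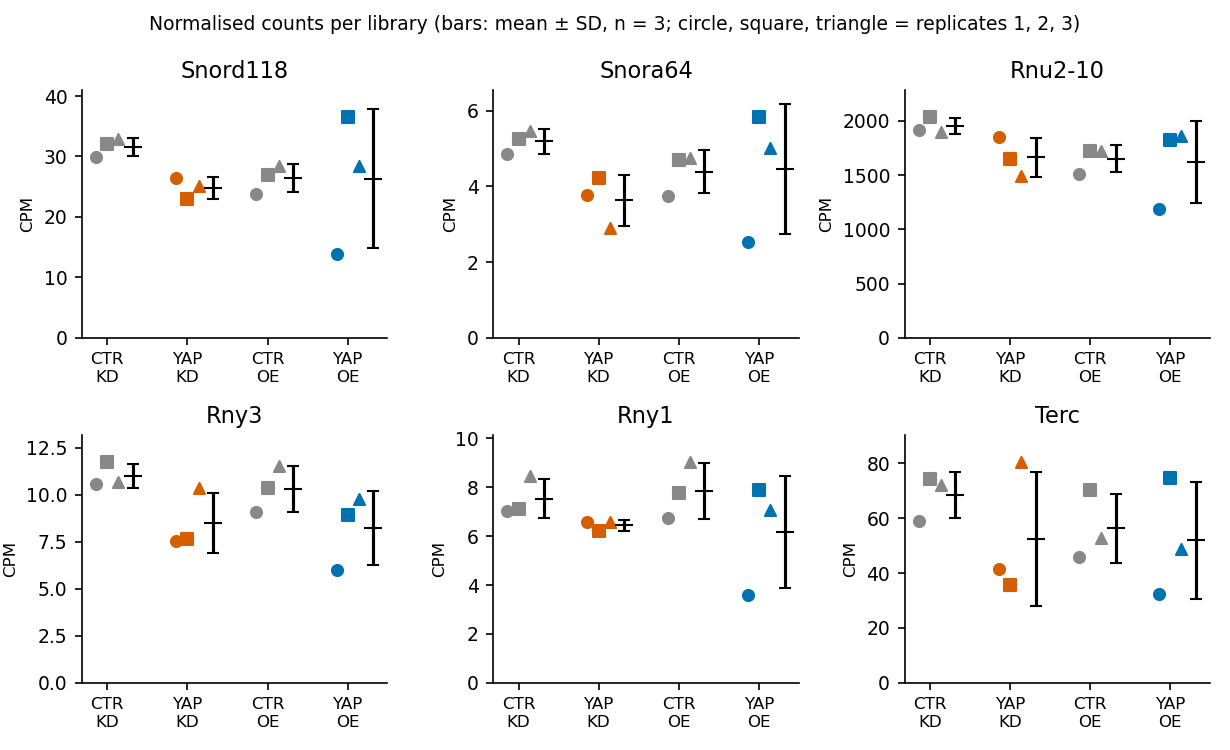
CPM of Snord118, Snora64, Rnu2-10, Rny3, Rny1 and Terc in each of the 12 libraries (replicates 1, 2 and 3 as circles, squares and triangles) with the mean ± SD of each group (n = 3). All 3 YAP KD libraries lie below all CTR KD libraries for the first 5 genes, while Terc spans 35.6 to 80.5 CPM in YAP KD.

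Terc, the telomerase RNA, was among the 3 lowest fold changes of members with a mean of at least 50 counts, with libraries far apart. It was 58.9, 74.4 and 72.2 CPM in the CTR KD libraries and 41.5, 35.6 and 80.5 CPM in YAP KD. Replicates 1 and 2 of YAP KD were below all controls and replicate 3 was above them, so that the log2 fold change of -0.38 (SE 0.249, adjusted p = 0.46) was within the spread. Without YAP KD replicate 3 it was -0.83 (adjusted p = 0.00853). In the overexpression experiment Terc was 46.0, 70.4 and 52.9 CPM in the CTR OE libraries and 32.3, 74.7 and 48.8 CPM in YAP OE (-0.13, SE 0.205, and 0.12 without YAP OE replicate 1).

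Members with the largest counts had fold changes near 0 in YAP KD. Rn7sk was 27905, 30196 and 30333 CPM in CTR KD against 30552, 27277 and 28244 CPM in YAP KD (log2 fold change -0.04, SE 0.0559). Rn7s2 was 34267, 37905 and 35272 CPM against 39586, 33580 and 31704 CPM (-0.03, SE 0.0786), and Rn7s1 16365, 18413 and 19596 CPM against 17186, 17267 and 17442 CPM (-0.07, SE 0.0621). In each of these the YAP KD libraries lay on both sides of the controls or among them. Rpph1 was 11001, 11776 and 10290 CPM against 12228, 11561 and 8045 CPM (-0.05, SE 0.130). Rmrp was 8566, 9380 and 8476 CPM against 9749, 8293 and 7924 CPM (-0.03, SE 0.0758). For both the highest YAP KD library was replicate 1 and the lowest replicate 3, the libraries of longest and shortest fragments in the experiment.

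In the overexpression the same RNAs were ordered by library in another way. Rn7s2 was 39097, 37787 and 37451 CPM in CTR OE against 32752, 38457 and 42575 CPM in YAP OE (log2 fold change -0.01, SE 0.0823). Rpph1 was 10760, 10351 and 11254 CPM against 9752, 9585 and 11614 CPM (-0.06, SE 0.0721), and Rmrp 7651, 8429 and 7947 CPM against 6529, 7065 and 9103 CPM (-0.08, SE 0.0937). YAP OE replicate 3 was above all controls in all 3 of these RNAs and replicate 1 was below all controls, so the YAP OE mean lay inside a spread wider than that of the controls.

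Among the snRNAs, Rnu1b6, a copy of U1, which pairs with the start of introns, had 669, 721 and 841 CPM in CTR KD against 614, 560 and 869 CPM in YAP KD (log2 fold change -0.13, SE 0.145). The groups overlapped, and the share of this copy in the U1 reads is an estimate. Summed over the 4 U1 genes the value was -0.17 (SE 0.114, adjusted p = 0.49) in the knockdown and 0.00 (SE 0.179) in the overexpression. Rnu1b6 itself had 551, 734 and 640 CPM in CTR OE against 418, 865 and 676 CPM in YAP OE (0.03, SE 0.173). Rnu2-10 had 1508, 1720 and 1723 CPM in CTR OE against 1188, 1822 and 1862 CPM in YAP OE (-0.02, SE 0.120, and 0.16 without YAP OE replicate 1). Both snRNAs were lowest in YAP OE replicate 1 and above all controls in at least 1 other YAP OE library.

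The most counted C/D snoRNAs, the U3 copies Rnu3b1 and Rnu3b2, had 3299, 3365 and 2931 CPM each in CTR KD against 4032, 3234 and 2304 CPM in YAP KD (log2 fold change 0.00, SE 0.158). Here YAP KD replicate 1 was above all controls and replicate 3 below all of them. The 5 U3 genes summed to a log2 fold change of -0.01 (SE 0.155) in the knockdown and of -0.02 (SE 0.108) in the overexpression. Snord17, of 221 bases, had 125, 134 and 108 CPM in CTR KD against 154, 125 and 103 CPM in YAP KD (0.05, SE 0.128), with the same order of libraries. The 4 copies of Snord14, C/D snoRNAs of 18S ribosomal RNA, summed to -0.58 (SE 0.181, adjusted p = 0.11) in YAP KD. That sum rested mostly on Snord14e, at a mean of 7.88 CPM per kb over 12 libraries. Snord14c, Snord14d and Snord14a had 1.21, 1.13 and 0.12 CPM per kb. Of 22 C/D snoRNAs tested, 18 were below 0 in YAP KD (48.2% of all genes) and 1, Snord118, was called (5.49% of all genes).

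Snora73a and Snora73b, the most counted H/ACA snoRNAs, are U17 RNAs that act in ribosomal RNA cleavage. Snora73a had 1574, 1629 and 1583 CPM in CTR KD against 1672, 1448 and 1690 CPM in YAP KD (log2 fold change 0.01, SE 0.0589). Snora73b had 353, 351 and 315 CPM against 379, 320 and 354 CPM (0.05, SE 0.0668). In both the groups overlapped. In YAP OE they had -0.11 (SE 0.121) and -0.12 (SE 0.138), with replicate 1 the lowest library (1056 and 211 CPM) and replicate 3 the highest (1736 and 375 CPM). Snora16a, of 136 bases, had 1.25, 1.58 and 1.40 CPM in CTR KD against 1.75, 1.18 and 1.45 CPM in YAP KD (0.04, SE 0.172). Of 28 H/ACA snoRNAs tested, 23 were below 0 in YAP KD and 24 in YAP OE, where 48.2% and 51.3% of all genes were. Their medians were -0.20 and -0.23. Only Snora64 in YAP KD was called, where 5.49% of all genes were called in YAP KD and 2.13% in YAP OE. The YAP OE values include replicate 1, without which 28 of 68 tested members of all classes were below 0. Most of the tested H/ACA snoRNAs lie in the range of 100 to under 150 bases.

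The scaRNAs Scarna13 and Scarna6, at 275 and 248 bases, had small spreads between libraries. Scarna13 had 187, 196 and 180 CPM in CTR KD against 191, 184 and 171 CPM in YAP KD (log2 fold change -0.05, SE 0.0518). In the overexpression it had 179, 174 and 187 CPM against 156, 168 and 193 CPM (-0.06, SE 0.0613). Scarna6 had 58.4, 60.3 and 52.7 CPM in CTR KD against 65.0, 58.8 and 49.2 CPM in YAP KD (0.01, SE 0.0915). Neither separated the groups in either experiment.

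In YAP OE no member was called of 67 tested by edgeR, on a background of 2.13% of 14804 genes. DESeq2 also called 0, and 5 members had an unadjusted p under 0.05, all lower, where 5.59% of all genes did so and 7.55% were higher. Calls over all genes were 0.473% lower and 1.66% higher. The direction was again uneven, with 55 of 67 below 0 (51.3% of all genes) and a median of -0.12 against 0.00 for all genes. This direction rested on YAP OE replicate 1. Without it, 28 of 68 tested members were below 0, the median was 0.05, and 2 members, Snora81 and Snord15a, were called, both higher, where 2.19% of all genes were called. Without YAP OE replicate 3 instead, 66 of 68 were below 0, the median was -0.30, and 7 were called (1.85% of all genes), all lower, among them Rmrp, 3 U3 copies, Snora73a and Snora73b.

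Only Rnu11, Snora28 and Snora62, named after their values were seen, lay lower in all 3 YAP OE libraries than in all controls (7.8% of all genes), and none lay higher (10.3%). Rnu11, the U11 snRNA of the minor spliceosome, averaged 14.5 expected counts per library. It had 0.348, 0.349 and 0.361 CPM in the CTR OE libraries and 0.156, 0.138 and 0.286 CPM in YAP OE (log2 fold change -0.82, SE 0.325, adjusted p = 0.26). Among members with at least 50 counts, Snord13, a C/D RNA that guides acetylation of ribosomal RNA, was lowest. It had 4.24, 5.07 and 6.34 CPM in the CTR OE libraries and 2.63, 3.99 and 4.97 CPM in YAP OE (-0.43, SE 0.180, adjusted p = 0.30). Snord49a had 1.10, 0.862 and 1.5 CPM against 0.642, 0.941 and 1.05 CPM (-0.40, SE 0.227), and Rny1 6.75, 7.76 and 9.04 CPM against 3.58, 7.87 and 7.08 CPM (-0.35, SE 0.191). Rny3 had 9.07, 10.3 and 11.5 CPM against 5.99, 8.93 and 9.78 CPM (-0.32, SE 0.134, adjusted p = 0.29, and -0.14 without YAP OE replicate 1). Snord13, Snord49a, Rny1 and Rny3 were each lowest in YAP OE replicate 1, and for each at least 1 other YAP OE library lay within the controls. At the other end stood Snora16a, with 0.948, 0.965 and 1.48 CPM in CTR OE against 0.797, 1.45 and 1.70 CPM in YAP OE (0.21, SE 0.246). Snord15a had 5.26, 6.14 and 4.79 CPM against 3.21, 7.80 and 6.88 CPM (0.14, SE 0.213), and Snora81 9.46, 11.5 and 11.1 CPM against 6.48, 15.4 and 12.9 CPM (0.10, SE 0.197). In all 3, YAP OE replicate 1 lay below all controls and another YAP OE library above all of them.

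**Figure D4:**
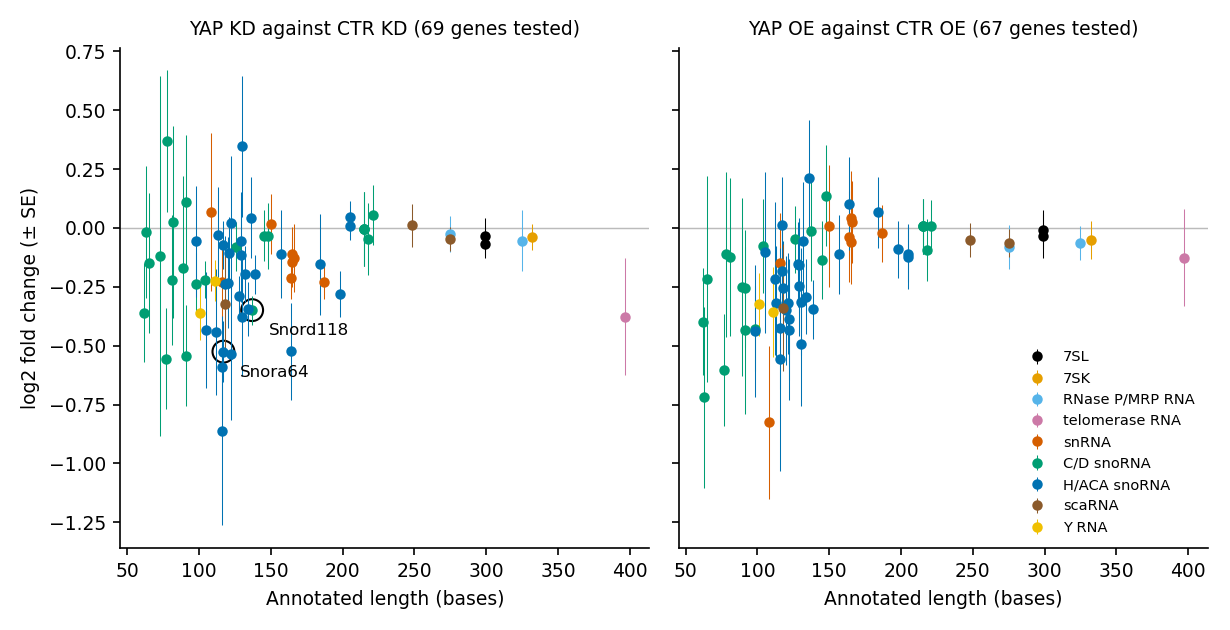
log2 fold change (± SE) of each tested small RNA gene against annotated length in bases, for YAP KD (left, 69 genes) and YAP OE (right, 67 genes), coloured by class, with the called genes Snord118 and Snora64 circled. Genes shorter than 150 bases lie mostly below 0 in both panels, and those of 200 bases or more lie between -0.12 and 0.05 except Terc.

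No member passed the test of a difference between the responses. The contrast of the overexpression response with the knockdown response was tested for 70 members over all 12 libraries, and 0 were called by edgeR (0 also by DESeq2, and 0 at an unadjusted p under 0.05), where 8.8% of 15049 genes were called and 22.5% had such a p. Of 67 members tested in both experiments, 47 were below 0 in both, 3 above 0 in both, and 17 had opposite signs. The share of all genes with such signs in both was not computed. Singly, 48.2% of all genes were below 0 in YAP KD and 51.3% in YAP OE. The direction of the members in YAP OE rested on replicate 1, without which 28 of 68 were below 0. The experiments share no library. For Snord118 the difference was 0.34 (95% interval -0.30 to 0.98) and for Snora64 0.54 (-0.11 to 1.19), so that responses of opposite direction and equal responses were both within the interval. Without YAP OE replicate 1, 3 of 72 members were called in this contrast, where 7.75% of all genes were. These were Snord118, Snora64 and Rnu2-10, each with a higher value in the overexpression response.

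Fragment size differed between libraries. In the knockdown, members under 150 bases were lowest in the 2 libraries of longest fragments, and the overexpression was less regular. Mean fragment length was 175, 176 and 172 bases in CTR KD and 185, 181 and 169 bases in YAP KD. In the overexpression experiment it was 178, 175 and 174 bases in CTR OE and 183, 169 and 180 bases in YAP OE. Members of 100 to under 150 bases summed to 198, 206 and 220 CPM in the CTR KD libraries and to 178, 162 and 204 CPM in YAP KD, with the lowest sums in the 2 libraries of longest fragments. Members of 200 to under 250 bases went the other way. They had 14868, 15536 and 13575 CPM in the CTR KD libraries and 18034, 14351 and 11302 CPM in YAP KD. Members of 150 to under 200 bases had 3624, 3888 and 3889 CPM in CTR KD and 3436, 3068 and 3392 CPM in YAP KD. For them YAP KD replicate 3, with the shortest fragments, also lay below all controls. The lowest of all sums for members of 100 to under 150 bases, 102 CPM, belonged to YAP OE replicate 1, with fragments of 183 bases. But YAP OE replicate 3, at 180 bases, had 194 CPM and lay within its controls. Members under 100 bases had 10.3 CPM in YAP OE replicate 2, the library of shortest fragments. That was below all CTR OE libraries (11.8, 13.1 and 15.8 CPM). With each library's effective lengths as an offset, 36 of 69 members were below 0 in YAP KD, the median was -0.01, and 0 were called. In YAP OE the same offset left 50 of 67 below 0, with a median of -0.08. The Y RNAs stayed at -0.31 in YAP KD and passed the threshold (adjusted p = 0.0203). Effective lengths under 1 base entered the offset as 1, so Rny3 and other members listed at 0 in every library were not adjusted by it. Rny1, listed at 0 in 6 libraries and at no more than 1.20 bases in the others, was hardly adjusted. The Y RNA value with the offset is therefore close to an unadjusted value. That fit used the fragment size as the quantification had estimated it, and the part of fragment size in the differences was otherwise not tested.

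**Figure D5:**
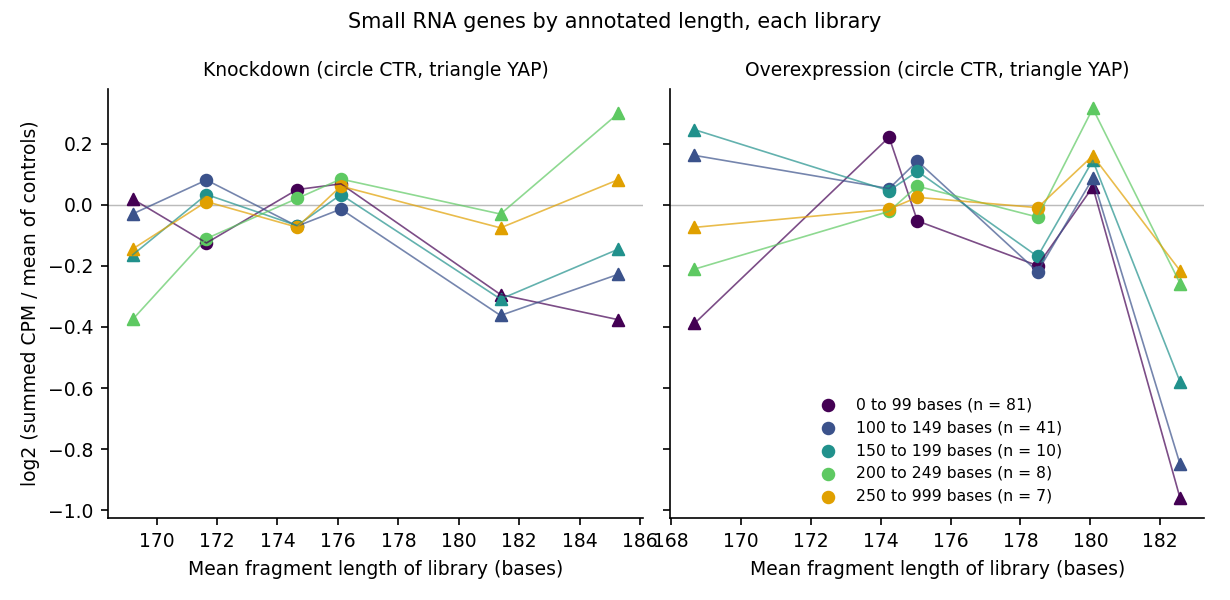
Summed CPM of members in 5 bins of annotated length, as the log2 ratio to the mean of the controls, against the mean fragment length of each library in bases, for the knockdown (left) and overexpression (right) experiments, with circles for CTR and triangles for YAP libraries. In the knockdown, bins under 150 bases are lowest in the 2 libraries above 180 bases, and in the overexpression the library at 183 bases (YAP OE replicate 1) is the lowest in every bin.

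Shares of the classes were also set against fragment length over libraries, in 30 relations over the knockdown libraries, the overexpression libraries and both together. Before adjustment 9 of the 30 had a p under 0.05. After adjustment 1 passed, that of telomerase RNA over 12 libraries (Pearson r = -0.89, permutation p = 2.2e-04, adjusted p = 0.0066, Spearman rho = -0.87, permutation p = 6.0e-04, adjusted p = 0.018). Without the 2 libraries farthest from the median fragment length r was -0.86. In the 6 knockdown libraries r was -0.90 (exact permutation p = 0.0361, rho = -0.77, exact p = 0.10) and without the 2 farthest -0.83. In the 6 overexpression libraries r was -0.91 (exact permutation p = 0.0111, rho = -0.89, exact p = 0.0333) and without the 2 farthest -0.66. These p-values within an experiment did not pass adjustment (adjusted p = 0.12 for both r). Terc was lower in libraries with longer fragments, and the control libraries entered this relation with the YAP libraries. For all 147 genes together r was 0.23 over 12 libraries (permutation p = 0.47, rho = 0.24, permutation p = 0.46) and 0.53 without the 2 farthest.

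A strand was available for 106 of the 147 members, and those without one could not be matched to a host. Of the members, 84 snoRNAs and scaRNAs were found within another gene on the same strand. In the knockdown 34 of these could be set beside a tested host. The median log2 fold change was -0.16 for these members and 0.03 for their hosts, and signs were shared in 17 of 34 pairs. In the overexpression the medians were -0.21 and 0.00, with 18 of 33 pairs of equal sign. Of 27 hosts, 2 were called in the knockdown, Snhg1 and 2410006H16Rik (5.49% of all genes), and 0 in the overexpression (2.13% of all genes). Snhg1, a noncoding host named after its values were seen, was 57.2 ± 2.31 CPM in the CTR KD libraries and 47.3 ± 2.10 CPM in YAP KD (SD, n = 3) and fell by 0.27 (SE 0.0491, adjusted p = 0.0125), while Snord22 inside it had -0.08 (SE 0.105). The host 2410006H16Rik fell by 0.34 (SE 0.0426, adjusted p = 0.00261), and of its snoRNAs Snord49a had -0.36 (SE 0.212) and Snord49b -0.02 (SE 0.280). Fragments of an unspliced host that lie inside a snoRNA cannot be told apart from the snoRNA in these counts.

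The protein partners of these RNAs were read from 8 lists of 100 genes in all. In the knockdown 4 were called higher and 1 lower, 5% against 5.49% of all genes. In the overexpression 1 was called lower, 1% against 2.13% of all genes. Snrpg, a subunit of the Sm ring of the snRNPs, rose from 68.7 ± 1.51 to 83.2 ± 2.11 CPM in YAP KD (SD, n = 3, log2 fold change 0.28, SE 0.0406, adjusted p = 0.00534). Ints3, of the Integrator complex that cuts snRNA ends, rose by 0.27 (SE 0.0456, adjusted p = 0.00867), and Rpp14, a protein of RNase P, rose by 0.17 (SE 0.0418, adjusted p = 0.0491). Srp68, of the signal recognition particle, fell by 0.22 (SE 0.0458, adjusted p = 0.0239). The RNAs of the same particles, 7SL, Rpph1 and the summed snRNAs, were not called. In YAP OE Hexim1, the 7SK-bound inhibitor of P-TEFb, fell by 0.19 (SE 0.0424, adjusted p = 0.0261), beside a log2 fold change of -0.05 for Rn7sk. None of the 4 box C/D and 9 H/ACA and telomerase proteins was called in either experiment.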

How the data were processed

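Total RNA was sequenced from 12 libraries of mouse ESCs, 3 per group, grouped by the sample labels. The authors mapped reads with STAR on mm10 and quantified RefSeq curated transcripts with RSEM. Versions, the selection of fragments and the strand setting are not given in the sources used here. The deposited files hold expected counts, TPM and FPKM per gene, with annotated and effective length as further deposited columns. Expected counts, which the authors' RSEM run split between near-identical copies, were rounded and tested with edgeR 4.0.16 (filterByExpr, TMM, quasi-likelihood F test, R 4.3.3) for each experiment over all genes (libraries of one group are the replicates, and a p-value measures the spread between them), with Benjamini-Hochberg adjustment and a threshold of 0.05. edgeR was also the tool of the authors. Classes were tested as summed rows, and shares by exact permutation. The authors' TPM served for shares and as an alternative, and the deposited FPKM was not tested. The fits were tested on simulated data first. Members, classes, lists and tests were chosen with earlier results of these data known.

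The members named by rule were the 2 most counted of each class, all called genes, and the 3 highest and 3 lowest log2 fold changes per experiment among members with a mean of at least 50 counts. Partner genes were named when called, except 1 that is not reported here, and host genes when they hold a named snoRNA. RefSeq GRCm38.p6 gave coordinates for 145 of the 147 members. Alternatives covered scaling, filters, DESeq2 1.42.0, limma 3.58.1, TPM with a pseudocount of 1 or 0.1, an effective length offset, the block, and leaving out each library.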

Additional observations from a re-analysis of the deposited data

How the results depend on the processing

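The count of called members in YAP KD (2 of 69 tested) became 1 with total counts (4.97% of all genes), 3 with genes of at least 1 count in any library (Rnu2-10, Snora64 and Snord118, of 123 tested, 4.42% of all genes) and 4 with DESeq2 (Rnu2-10, Snora64, Snora74a and Snord118, of 123 tested, 3.58% of all genes). It was 0 with log2(TPM + 1) (0.507% of all genes), log2(TPM + 0.1) (0.322%), the effective length offset (5.27%) or 1 fit over all 12 libraries (8.38%). When single libraries were left out it was 0 to 6 (0 on leaving out CTR KD replicate 3, 2.02% of all genes, and 6 on leaving out YAP KD replicate 3, 2.51%). In YAP OE the count of called members (0) became 3 with genes of at least 1 count in any library (Rny3, Snora43 and Snord13, of 125 tested, 2.8% of all genes). It became 1 with log2(TPM + 1) (0.588% of all genes) and 1 with log2(TPM + 0.1) (0.459% of all genes), Snora41 both times. Snora41 had counts in every library but a TPM above 0 in only 8 of 12, so these TPM values include listed zeros. Without single libraries the count ranged from 0 to 7 (7 without YAP OE replicate 3, 1.85% of all genes). Classes called in YAP KD (0) became 2 with upper-quartile factors, with genes of at least 1 count and with DESeq2 (snRNA and Y RNA), 1 with total counts (snRNA), 2 with log2(TPM + 0.1) (telomerase and Y RNA), 1 with the effective length offset (Y RNA), and 0 to 2 without single libraries (2 without YAP KD replicate 3). The telomerase class is Terc alone. Tested as a single gene with log2(TPM + 0.1), Terc was not called in YAP KD (log2 fold change -0.46, limma, adjusted p = 0.87). Classes called in YAP OE (0) became 1 with genes of at least 1 count, log2(TPM + 1) or log2(TPM + 0.1) (Y RNA), and 0 to 4 without single libraries (4 without YAP OE replicate 3). On TPM the Y RNA value is that of Rny1 alone, which is listed at 0 in 6 of 12 libraries, since Rny3 is listed at 0 in all. Members called in the difference of both responses (0) ranged from 0 to 3 (3 without YAP OE replicate 1, 7.75% of all genes). Snord118 and Snora64, the members called in YAP KD, kept their sign under every alternative, and no share moved by more than its spread. Rnu3b1, Rnu3b2 and Rnu3b3, uncalled and marginally positive in YAP OE, were called lower without YAP OE replicate 3 (adjusted p = 0.0451, edgeR). With the replicate number as a block, 0 members were called in YAP KD (1.32% of all genes) and 1 in YAP OE (Snord13, 1.89% of all genes). The samples share only a number: the deviations of libraries with the same number correlated at -0.39, -0.28 and 0.04 in the knockdown and at 0.05, 0.08 and -0.02 in the overexpression. Depth limits the 81 members under 100 bases, of which 12 had a mean of at least 10 counts.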
